A study of Mus musculus with 2 samples.

Results

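Integrins, selectins and the adhesion molecules of the immunoglobulin superfamily were followed in islet grafts 6 hours after transplantation. The genes were chosen by symbol: integrin alpha and beta subunits, P- and E-selectin with the P-selectin ligand Selplg, the ICAMs, VCAM-1, MAdCAM-1, the junctional adhesion molecules, ALCAM and MCAM. No measured value entered this rule, but it was set with earlier results of these data known. This gave 39 of the 18193 genes on the arrays. Of the symbols searched for, Icam3, Itga11 and Itgad were not analysed here, because no probe set carried them alone.

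The graft from the hyperglycemic recipient had spent 6 hours in a male mouse heterozygous for Akita, a missense mutation of the insulin gene Ins2 that leads to beta cell failure and diabetes. The graft from the normoglycemic recipient came from a male wild type (WT) C57BL/6 mouse. Both recipients carried 50 islets under the left kidney capsule, and the donors of both were wild type C57BL/6 mice, so the islets themselves were not mutant. The recipients differed in genotype and in glycemia, and these cannot be told apart. The sources used here tie neither an age to the recipients of these arrays nor a number of mice to each RNA sample. With 1 array per condition there was no spread between replicates, so no test was possible and every difference below describes these 2 samples.

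Leukocytes leave the blood in steps. Selectins on activated endothelium and platelets catch sugar-bearing ligands such as PSGL-1 on rolling leukocytes, and leukocyte integrins, which pair an alpha with a beta subunit, then bind ICAMs and VCAM-1 on the vessel wall until the cell crosses the endothelial junctions. Other integrins anchor epithelial, endothelial and islet cells to laminin, collagen and fibronectin. Inflammation within hours of islet transplantation is known to involve platelets, neutrophils and macrophages.

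Signals were compared as the ratio of the Akita graft over the WT graft, taking for each gene the probe set with the highest mean signal. Different probe sets bind their targets differently, so a signal is not set against that of another gene. A gene counted as measured if its signal on either array was no lower than that array's median, which was 91.5 in the Akita graft and 82.9 in the WT graft. Below these levels a signal carries little information, and a gene with 1 signal there has only a bound on its ratio, computed with that signal raised to the median and given as "at least". Of the 39 genes, 29 were measured: 25 on both arrays, Itgam, Itgb3 and Itga10 on the Akita array only, and Itga8 on the WT array only.

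Among the measured adhesion genes, 7 of 29 were over 2-fold higher in the Akita graft, which is 24.1%, against 7.56% of the 12538 measured genes. These were Itgb2, Itgam, Itgax, Itgb3, Selp, Selplg and Icam2. The genes over 2-fold lower were Jam3 and Itga8, which is 2 of 29 or 6.90%, against 5.54% of all measured genes. With low signals raised to the array medians the counts became 7 and 1, since Itga8 then lay within 2-fold. Of the 25 genes measured on both arrays, 5 were over 2-fold higher and 1 lower, against 3.53% and 1.89% of the 10816 genes of that kind. The median log2 ratio of the 29 genes was 0.30, or 1.23-fold, beside -0.06 over all measured genes. Selp had been listed by the study itself as a gene of interest on these same arrays, and cell adhesion and integrin signalling are among the gene classes it listed, so Selp's direction is not independent evidence. Without it, 6 of 28 genes were over 2-fold higher. Because the listed classes came from these same arrays, that count is not independent evidence either.

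**Figure D1:**
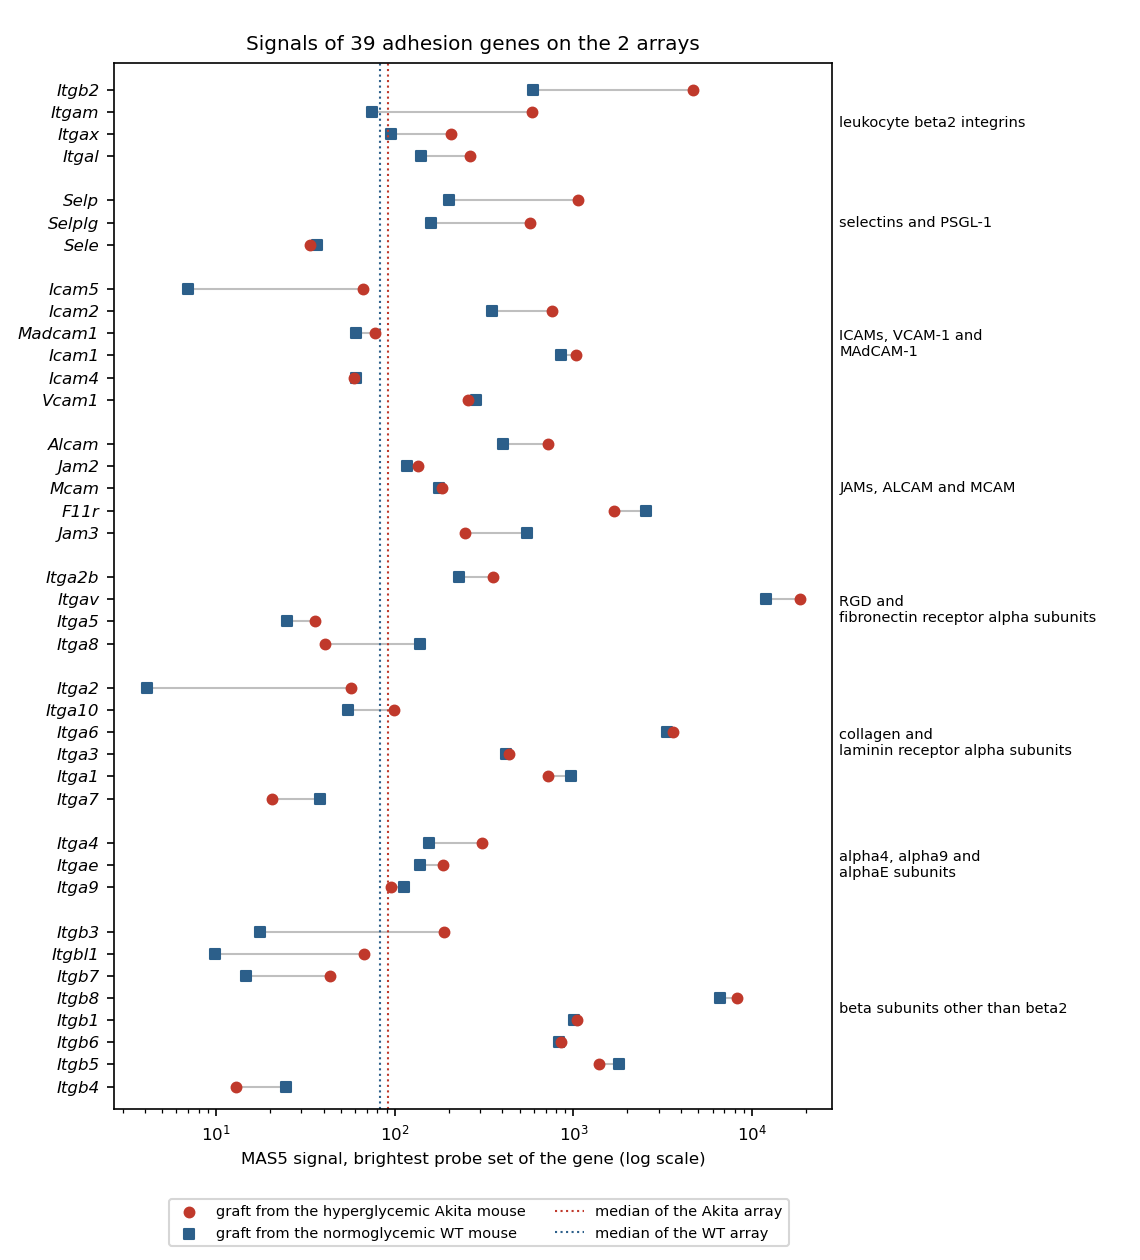
MAS5 signal of each of the 39 adhesion genes (log axis) in the graft from the Akita mouse (circles) and in the graft from the WT mouse (squares), 1 array each, ordered by role, with the array medians as dotted lines. Itgb2, Selp and Selplg have circles far to the right of their squares, whereas the 2 symbols of Itgb1, Itga6 and Itga3 nearly coincide.

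The beta2 integrins of leukocytes and the other integrins gave different counts. All 4 genes of the beta2 family were higher in the Akita graft, with a median log2 ratio of 2.05, and 3 of them passed 2-fold. Among the 15 measured integrin genes outside that family, 1 was over 2-fold higher and 1 lower, with a median log2 ratio of 0.11. That is 6.67% each, beside 7.56% and 5.54% of all measured genes. In a bulk sample a higher signal may come from more cells of a type or from more RNA per cell, which cannot be told apart here.

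Itgb2 encodes CD18, the beta chain shared by every leukocyte integrin of the family, without which none reaches the cell surface. Its signal was 4686 in the Akita graft and 594 in the WT graft, 7.89-fold higher and rank 173 of the 12538 measured genes. Itgam, or CD11b, pairs with it to form Mac-1, the receptor by which neutrophils, monocytes and macrophages bind ICAM-1, fibrinogen and complement iC3b. Its signal was 587 in the Akita graft and 74.7 in the WT graft, where it lay below the array median, so it was at least 7.08-fold higher. Itgax, or CD11c, is typical of dendritic cells and of some macrophages. It read 206 in the Akita graft and 94.7 in the WT graft, 2.18-fold higher. Itgal, or CD11a, forms LFA-1, which lymphocytes and other leukocytes use to bind ICAMs. It read 264 in the Akita graft and 140 in the WT graft, 1.89-fold higher and just short of 2-fold. The 3 alpha chains were thus all higher along with their beta chain, by unequal folds.

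Itgam and Itgax stand next to each other on chromosome 7 with 0 protein-coding genes between them, and Itgal is separated from Itgam by 35. The start regions of both neighbours are shown because these adjacent genes had ratios of at least 7.08 and of 2.18, together with those of Selp, which was higher, and of Icam1, which lay within 2-fold. Each run is 300 bases of the RefSeq promoter table for GRCm38.p6, plus strand, from 250 bases before the start to 50 after it. Capitals mark matches, on either strand, to GAGGAA (the core bound by PU.1), AGGAAG (a core bound by ETS factors), GGAAATTCC (an NF-kB type) or TATAAA (the TATA box). GAGGAA and AGGAAG can overlap, as they do in Itgam.
Itgam, chr7:128062390-128062689: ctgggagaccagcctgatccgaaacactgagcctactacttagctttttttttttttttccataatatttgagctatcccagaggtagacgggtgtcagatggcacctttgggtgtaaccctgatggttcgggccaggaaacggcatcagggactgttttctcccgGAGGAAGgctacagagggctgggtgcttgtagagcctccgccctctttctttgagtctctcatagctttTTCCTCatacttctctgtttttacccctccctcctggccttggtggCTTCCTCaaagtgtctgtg
Itgax, chr7:128129300-128129599: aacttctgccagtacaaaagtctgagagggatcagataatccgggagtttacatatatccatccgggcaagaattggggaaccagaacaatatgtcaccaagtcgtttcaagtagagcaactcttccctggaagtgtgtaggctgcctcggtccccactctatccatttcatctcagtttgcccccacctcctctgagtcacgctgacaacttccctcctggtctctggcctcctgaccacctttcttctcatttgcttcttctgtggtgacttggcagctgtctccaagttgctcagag
Selp, chr1:164115014-164115313: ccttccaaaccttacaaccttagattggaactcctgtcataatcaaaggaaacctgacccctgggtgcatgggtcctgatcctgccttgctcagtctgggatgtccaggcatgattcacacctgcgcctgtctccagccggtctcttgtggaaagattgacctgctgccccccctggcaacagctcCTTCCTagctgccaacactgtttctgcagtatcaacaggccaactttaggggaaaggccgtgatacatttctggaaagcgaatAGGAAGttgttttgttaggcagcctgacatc
Icam1, chr9:21015690-21015989: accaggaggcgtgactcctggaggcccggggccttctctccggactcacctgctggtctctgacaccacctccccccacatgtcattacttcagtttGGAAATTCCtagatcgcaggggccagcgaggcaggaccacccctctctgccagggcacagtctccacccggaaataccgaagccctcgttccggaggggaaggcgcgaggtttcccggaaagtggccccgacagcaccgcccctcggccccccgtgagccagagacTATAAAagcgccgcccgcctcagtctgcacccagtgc

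Itgam held 3 matches to GAGGAA and 2 to AGGAAG, Selp held 2 to AGGAAG, Icam1 held 1 to GGAAATTCC and 1 to TATAAA, and Itgax held none of the 4. GAGGAA occurred in 28.3% of all 32851 windows of the table and in 12 of the 29 windows of the adhesion genes. AGGAAG occurred in 35.4% of all windows and in 13 of the 29, TATAAA in 13.6% and in 2, and GGAAATTCC in 0.317% and in 1. These are letter matches, not measured binding, and the TATAAA of Icam1 lay 13 bases after the annotated start. All 39 genes were matched to RefSeq by symbol, and 27 of them had a promoter window.

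Of the selectins, P-selectin differed widely between the grafts and E-selectin was not measured. Selp is stored in platelets and endothelial cells and moves to their surface within minutes of activation, which its RNA level does not show. Its signal was 1064 in the Akita graft and 202 in the WT graft, 5.28-fold higher, and its other probe sets ran the same way. One read 416 in the Akita graft and 111 in the WT graft, and the third read 523 in the Akita graft and 37.4 in the WT graft, there below the array median. Sele, which endothelium makes anew after cytokine exposure, read 33.4 in the Akita graft and 36.5 in the WT graft, both below the array medians. Only 1 protein-coding gene lies between them on chromosome 1. Selplg, which encodes PSGL-1, the selectin ligand of myeloid cells and lymphocytes, read 568 in the Akita graft and 160 in the WT graft, 3.55-fold higher.

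Of the endothelial partners of the leukocyte integrins, Icam2 was over 2-fold higher and Icam1 and Vcam1 lay within 2-fold. Icam2, which is present on resting endothelium and on platelets, read 754 in the Akita graft and 348 in the WT graft, 2.17-fold higher. Icam1, the cytokine-induced ligand of Mac-1 and LFA-1, read 1039 in the Akita graft and 855 in the WT graft, 1.21-fold higher. Vcam1, the ligand of the alpha4 integrins, read 258 in the Akita graft and 283 in the WT graft, a log2 ratio of -0.13. A ratio of this size lies inside the technical spread described below, so neither a higher nor a lower level of Vcam1 was resolved. Icam4, a red cell adhesion molecule, read 59.1 in the Akita graft and 60.6 in the WT graft. Icam5, a neuronal member, read 66.7 in the Akita graft and 6.99 in the WT graft. Madcam1, the gut addressin, read 77.4 in the Akita graft and 60.3 in the WT graft. All 3 lay below both array medians and have no fold.

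**Figure D2:**
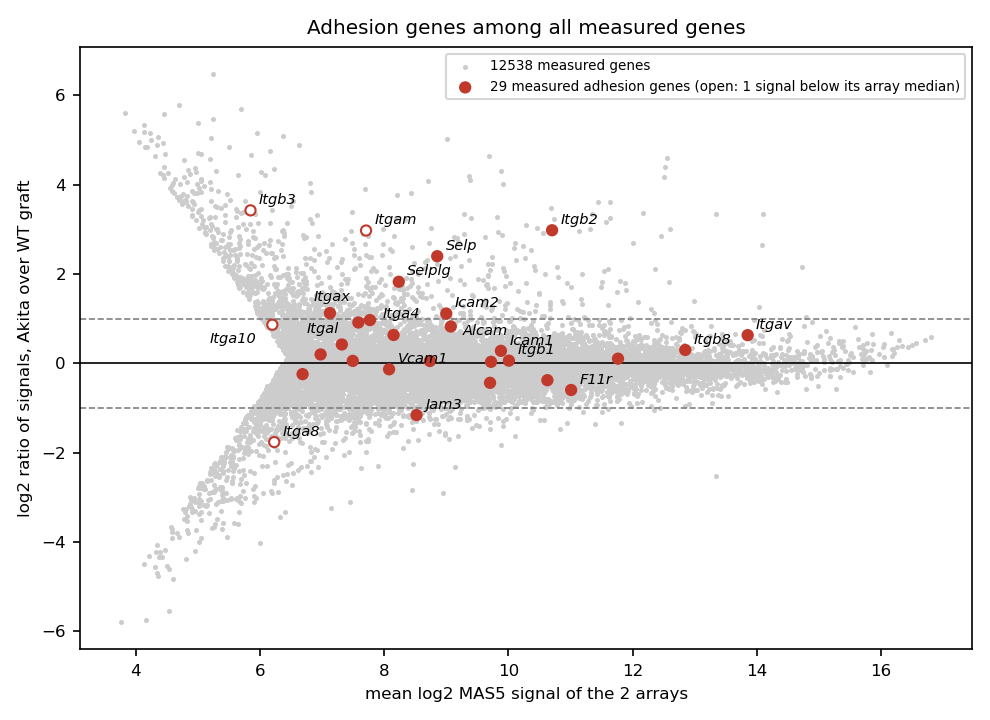
Log2 ratio of the signals, Akita over WT graft, against the mean log2 signal of both arrays, with 12538 measured genes in grey and the 29 measured adhesion genes in red (open where 1 signal was below its array median); dashed lines mark 2-fold. Itgb2 stands out at a high mean signal with a log2 ratio of 2.98, Itgb3 and Itga8 sit where the grey cloud fans out at low signal, and the ratios of Itgav and Itgb8, at high mean signal, are 0.63 and 0.30.

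Alcam and the junctional molecules went both ways. Alcam, which binds CD6 on lymphocytes and also other Alcam molecules, read 717 in the Akita graft and 405 in the WT graft, 1.77-fold higher. Its other 3 measured probe sets gave log2 ratios of 1.81, 1.42 and 1.09, so all lay above that of the brightest. Jam3, or JAM-C, sits at endothelial and epithelial junctions and is a ligand of Mac-1. It read 246 in the Akita graft and 549 in the WT graft, 2.23-fold lower, the lowest ratio among the 25 genes measured on both arrays. F11r, or JAM-A, a tight junction molecule of epithelium, endothelium and platelets that binds LFA-1 in human cells, read 1678 in the Akita graft and 2536 in the WT graft, 1.51-fold lower. A dimmer F11r probe set read 98.4 in the Akita graft and 97.8 in the WT graft. Jam2, or JAM-B, read 135 in the Akita graft and 118 in the WT graft, but another probe set gave a log2 ratio of -0.78, so its direction depended on the probe set. Mcam, of endothelium and smooth muscle, read 184 in the Akita graft and 177 in the WT graft, a log2 ratio of 0.06 that became -0.03 under quantile normalization.

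Of the alpha chains that bind RGD-type sequences, Itgav and Itga2b were moderately higher in the Akita graft. Itgav pairs with several beta chains to bind vitronectin, fibronectin and latent TGF-beta, and read 18413 in the Akita graft and 11882 in the WT graft, 1.55-fold higher. Its 2 other measured probe sets gave log2 ratios of 0.86 and 0.58, the latter with a WT signal of 77.1, below the array median. Itga2b, the platelet fibrinogen receptor chain also called GPIIb, read 355 in the Akita graft and 228 in the WT graft, 1.55-fold higher. Itgb3, GPIIIa, its partner on platelets and the partner of Itgav on other cells, read 189 in the Akita graft and 17.6 in the WT graft, at least 2.28-fold higher. The second Itgb3 probe set read 5.25 in the Akita graft and 16.2 in the WT graft, below both medians, so the call rests on 1 probe set. That probe set falls in the dimmest class of the technical spread described below, where 1 SD of a log2 ratio is 1.79. Its log2 ratio was 3.43, or 1.91 SD, before raising low signals, and 1.19, inside 1 SD, after. Itga2b and Itgb3 are 40 protein-coding genes apart on chromosome 11.

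Itga8, the alpha chain of a nephronectin and fibronectin receptor of mesangial and other contractile cells, read 40.8 in the Akita graft and 138 in the WT graft, at least 1.51-fold lower. Its ratio before raising low signals was a log2 of -1.76, which placed it past 2-fold. Itga5, the fibronectin receptor chain, read 35.7 in the Akita graft, also lay below the array median in the WT graft and has no fold.

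The beta1 receptors for laminin and collagen differed little. Itgb1, the common beta chain, read 1052 in the Akita graft and 1009 in the WT graft, a log2 ratio of 0.06. Itga6, a laminin receptor chain of epithelia and islet cells, read 3610 in the Akita graft and 3356 in the WT graft, a log2 ratio of 0.11. Itga3, a laminin receptor chain of podocytes and tubules, read 435 in the Akita graft and 419 in the WT graft, a log2 ratio of 0.05. These genes were among the 10 whose ratio was within 1 technical SD. Itga1, a collagen receptor chain, read 718 in the Akita graft and 971 in the WT graft, 1.35-fold lower. A dimmer probe set went the other way, with 101 in the Akita graft and 31.2 in the WT graft, there below the array median. Itga10, a collagen receptor chain of cartilage, read 99.3 in the Akita graft and 54.5 in the WT graft, a log2 ratio of at least 0.26. Itga2, the collagen receptor chain of platelets and epithelium, read 56.6 in the Akita graft and 4.09 in the WT graft. Itga7, a laminin receptor chain of muscle, read 20.6 in the Akita graft and 38.2 in the WT graft, and as for Itga2 both signals were below the medians. Itga1 and Itga2 are immediate neighbours on chromosome 13.

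The remaining alpha chains are those of leukocyte receptors for VCAM-1, osteopontin and E-cadherin. Itga4 pairs with Itgb1 into VLA-4, the VCAM-1 receptor of lymphocytes, monocytes and mast cell precursors. It read 306 in the Akita graft and 156 in the WT graft, 1.96-fold higher. A dimmer probe set gave a log2 ratio of 2.14 before raising low signals, with 27.6 in the WT graft, below the array median. Itgae, or CD103, of intraepithelial T cells and some dendritic cells, read 185 in the Akita graft and 138 in the WT graft, a log2 ratio of 0.42. Another probe set gave -0.82, with 48.2 in the Akita graft, below the array median, and 85.4 in the WT graft. The direction of that probe set was not resolved. Itga9, a receptor chain for tenascin and VCAM-1, read 94.8 in the Akita graft and 112 in the WT graft, a log2 ratio of -0.24. Itga4 had the highest ratio of these 3.

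The other beta chains, from Itgb4 to Itgb8, and Itgbl1 lay within 2-fold or were not measured. Itgb8, which pairs with Itgav and releases active TGF-beta, read 8181 in the Akita graft and 6642 in the WT graft, 1.23-fold higher. Itgb5, a vitronectin receptor chain, read 1389 in the Akita graft and 1804 in the WT graft, 1.30-fold lower, and its other measured probe sets also gave negative log2 ratios of -0.35, -0.17 and -0.01. Itgb6, an epithelial activator of TGF-beta, read 855 in the Akita graft and 834 in the WT graft, a log2 ratio of 0.03. Itgb4, the hemidesmosome chain, read 12.8 in the Akita graft and 24.7 in the WT graft. Itgb7, of gut-homing lymphocytes, read 43.5 in the Akita graft and 14.8 in the WT graft. Itgbl1, an integrin-like secreted protein, read 67.4 in the Akita graft and 9.92 in the WT graft. These last 3 genes were below both medians.

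The spread between probe sets of the same gene gives the only error that these arrays hold. It covers the chemistry of the probes and not the variation between mice. From pairs of probe sets of 1 gene, 1 SD of a log2 ratio corresponded to 3.46-fold in the dimmest class of probe sets, to 1.42-fold in the class of Itgax and to 1.15-fold in the brightest class. By this measure, without raising low signals, 11 of the 29 measured genes lay over 2 SD from a ratio of 1. Itgb2 did so by the widest margin of the members. The same count was not made over all measured genes, so it cannot be read as high or low. Itga8 was among the 11, but its log2 ratio with low signals raised was -0.60, within its SD of 0.72. In 13 genes with several measured probe sets, 7 had all of them on the same side of 1, without raising low signals.

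**Figure D3:**
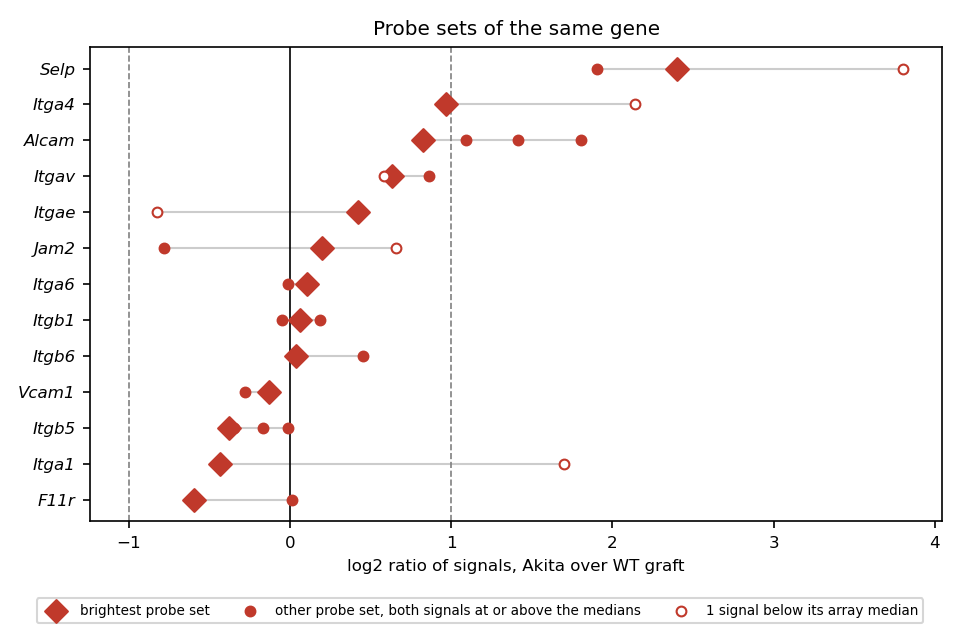
Log2 ratio of the signals, Akita over WT graft, for every measured probe set of the 13 adhesion genes that have several; diamonds are the brightest probe set, filled circles the others and open circles those with 1 signal below its array median. Plotted without raising low signals, Selp, Itga4, Alcam and Itgav lie wholly to the right of 0, Vcam1 and Itgb5 wholly to the left, and Itga1 and Itgae span it.

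The genes that switch integrins on went both ways. Of 38 measured genes of integrin activation and its adaptors, 5 were over 2-fold higher and 1 lower, with a median log2 ratio of 0.02. That is 13.2% and 2.63%, beside 7.56% and 5.54% of all measured genes. The lower one was Apbb1ip, the Rap1 partner RIAM of blood cells, with 19.0 in the Akita graft, below the array median, and 153 in the WT graft, and with low signals raised to the medians it lay within 2-fold. The 4 genes measured on both arrays with ratios farthest from 1 were all higher in the Akita graft. Fermt3, kindlin-3, which activates integrins in blood cells and platelets, read 4163 in the Akita graft and 549 in the WT graft, 7.58-fold higher. Fyb, the adaptor ADAP, read 407 in the Akita graft and 108 in the WT graft, 3.78-fold higher. Rasgrp2, the activator of Rap1 in platelets and neutrophils, read 263 in the Akita graft and 130 in the WT graft, 2.02-fold higher. Fgr, a kinase of myeloid cells, read 347 in the Akita graft and 185 in the WT graft, 1.87-fold higher.

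Among 26 measured extracellular ligands of integrins, 2 were over 2-fold higher and 4 lower (3 with low signals raised to the medians), which is 7.69% and 15.4% beside 7.56% and 5.54% of all measured genes, with a median log2 ratio of -0.32. Thbs1, thrombospondin-1, read 5229 in the Akita graft and 552 in the WT graft, 9.47-fold higher. Fn1, fibronectin, read 17667 in the Akita graft and 2204 in the WT graft, 8.02-fold higher. Both are made by macrophages as well as by connective tissue cells. The interstitial collagen genes differed among themselves. Col1a2 read 204 in the Akita graft and 677 in the WT graft, 3.31-fold lower, and Col3a1 read 213 in the Akita graft and 588 in the WT graft, 2.77-fold lower. Col1a1, whose protein joins that of Col1a2 in type I collagen, read 111 in the Akita graft and 64.3 in the WT graft, there below the array median, a log2 ratio of at least 0.42.

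Of 13 measured genes that make or carry selectin ligands, 2 were over 2-fold higher and 0 lower, with a median log2 ratio of -0.23. That is 15.4% and 0%, beside 7.56% and 5.54% of all measured genes. Cd44, a carrier that binds hyaluronan and, when glycosylated, selectins, read 3460 in the Akita graft and 910 in the WT graft, 3.80-fold higher. St3gal4, a sialyltransferase that caps selectin ligands, read 258 in the Akita graft and 94.3 in the WT graft, 2.74-fold higher. St3gal6, of the same family, read 432 in the Akita graft and 790 in the WT graft, 1.83-fold lower. Cd34, an endothelial mucin, read 193 in the Akita graft and 367 in the WT graft, 1.90-fold lower. Thbs1 and Cd44, like Selp, are in the study's own lists of genes from these arrays, and their direction is not independent evidence.

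Of 15 measured genes of endothelial junctions and transmigration, 0 were over 2-fold higher and 1 lower (0 with low signals raised to the medians). That is 0% and 6.67%, beside 7.56% and 5.54% of all measured genes, with a median log2 ratio of -0.04 in the list. Nectin2 read 368 in the Akita graft and 201 in the WT graft, 1.83-fold higher, and Cxadr, the coxsackievirus receptor of tight junctions, read 618 in the Akita graft and 380 in the WT graft, 1.63-fold higher. Plvap, of endothelial diaphragms, read 710 in the Akita graft and 1187 in the WT graft, 1.67-fold lower. Cldn5, the endothelial claudin, read 183 in the Akita graft and 287 in the WT graft, 1.57-fold lower.

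Markers of cell types differed beside the adhesion genes. Their counts stand beside shares of 7.56% higher and 5.54% lower over all 12538 measured genes. Of 11 measured macrophage and monocyte markers, 9 were over 2-fold higher in the Akita graft, with a summed list signal of 97469 in the Akita graft and 13220 in the WT graft. Of 8 general leukocyte markers, 5 were over 2-fold higher, with sums of 18186 in the Akita graft and 3965 in the WT graft, and Ptprc, which encodes CD45, read 1621 in the Akita graft and 631 in the WT graft. Cd53, a tetraspanin of leukocytes, read 9800 in the Akita graft and 796 in the WT graft. Each sum of marker signals, here and below, covers all genes of its list on the arrays, measured or not. A sum adds probe sets of unlike binding and is carried by those with high signals, such as that of Lyz2, the lysozyme of myeloid cells, with 55987 in the Akita graft and 5539 in the WT graft. Of 8 neutrophil markers on the arrays, 3 lay below both medians: Camp, Cxcr2 and Ngp. The 5 measured ones were all over 2-fold higher, 4 with low signals raised to the medians. Among them Ltf read 92.8 in the Akita graft, just above the array median, and 5.21 in the WT graft, below it. The neutrophil sums were 17451 in the Akita graft and 4477 in the WT graft. The part of these cells in the ratios of the beta2 integrins, Selplg and Fermt3 was not tested.

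Other leukocytes were measured in part. Of 8 measured mast cell markers, 7 were over 2-fold higher, 4 with low signals raised to the medians. Their sums were 2585 in the Akita graft and 410 in the WT graft. These 7 passed the filter through the Akita array only, where they are high, so their number is not evidence of direction. Of 3 measured B cell markers, 2 were over 2-fold higher, with sums of 1170 in the Akita graft and 441 in the WT graft. These 2 also passed the filter through the Akita array only. Ighm, measured on both arrays, read 203 in the Akita graft and 298 in the WT graft. Only 1 of 8 T and NK cell markers was measured, and it lay within 2-fold.

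For platelets, 3 of 5 measured markers were over 2-fold higher, 2 with low signals raised to the medians, and the summed signal was 16061 in the Akita graft and 2171 in the WT graft. Pf4, platelet factor 4, read 14749 in the Akita graft and 1433 in the WT graft, and Ppbp, the precursor of platelet basic protein, read 935 in the Akita graft and 322 in the WT graft. Gp1bb, the von Willebrand factor receptor chain, read 108 in the Akita graft and 146 in the WT graft, Treml1 read 110 in the Akita graft and 185 in the WT graft, and Gp5 and Gp6 were below both medians. The platelet markers thus went both ways, and Pf4 carried most of their summed signal. The part of platelets in the ratios of Selp, Itga2b and Itgb3 was not tested. Pf4 and, of the other marker lists, Cd14, Cd163, Cd79b, Cr2 and Kit are also among the genes the study listed from these arrays, and their direction is not independent evidence.

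The endothelial list ran the other way. Of 11 measured endothelial markers, 11 had a ratio under 1 and 2 were over 2-fold lower. The same held for 6917 and 695 of all 12538 measured genes. With low signals raised to the medians the marker counts became 10 and 1, because Pecam1 read 12.5 in the Akita graft, below the array median, and 86.7 in the WT graft, close to it. The list had a median log2 ratio of -0.65 and sums of 4364 in the Akita graft and 6355 in the WT graft. Selp and Icam2 were higher beside this list, while Jam3 and Cd34 were lower. The part of endothelial content in those ratios was not tested.

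Both samples held islet and kidney RNA. Of 7 beta cell markers, 1 was over 2-fold higher, with sums of 180880 in the Akita graft and 136486 in the WT graft, and Ins2 read 88302 in the Akita graft and 68738 in the WT graft. All 8 proximal tubule markers lay within 2-fold, with sums of 231470 in the Akita graft and 215735 in the WT graft, so kidney RNA was present in both samples. Of 7 distal nephron markers, 7 had a ratio under 1 and 1 was over 2-fold lower, and podocyte markers lay within 2-fold with a median log2 ratio of -0.54. The ratio of 3' to 5' Actb probes, which grows as RNA is degraded, was 3.99 in the Akita graft and 3.54 in the WT graft, and that of Gapdh was 1.76 in the Akita graft and 1.30 in the WT graft. The part of RNA quality and of the kidney share in the adhesion ratios was not tested.

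**Figure D4:**
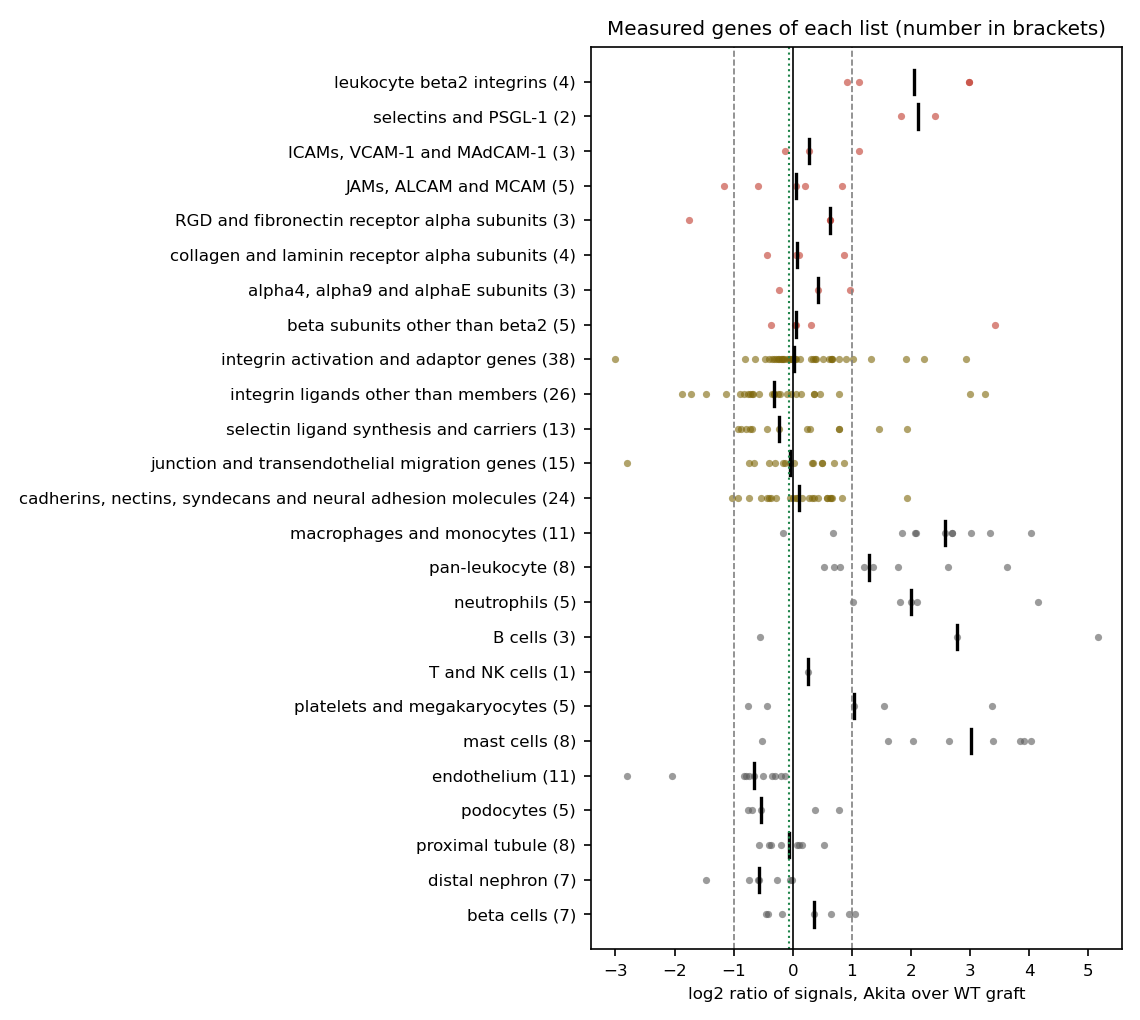
Log2 ratio of the signals, Akita over WT graft, for each measured gene of the adhesion roles (red), the pathway lists (ochre) and the cell type markers (grey), with the number of measured genes in brackets; black bars are list medians, the dotted line is the median of all measured genes and dashed lines mark 2-fold. The beta2 integrins and the selectin group have medians of 2.05 and 2.11, the macrophage and neutrophil markers have medians of 2.58 and 2.01, and the 11 endothelial markers, plotted without raising low signals, lie below 0.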

How the data were processed

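RNA of each graft was labelled with biotin and hybridized to 1 MOE430 2.0 array. The authors computed signal intensities by MAS5, and these were deposited on a linear scale. No source used here gives its version or settings, and the methods name the Subio Platform for expression analysis without settings. The 2%-trimmed mean signal was 499.8 on both arrays.

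Of 45101 probe sets, 34958 carried 1 gene symbol in the platform annotation, and only these were named. The adhesion genes had 83 probe sets, of which 50 were measured. The members and gene lists were chosen with earlier results of these data known. Every adhesion gene was named, with up to 4 genes per pathway list, those farthest from a ratio of 1 among the genes measured on both arrays. Col1a1, Apbb1ip and the named markers were chosen after their values were seen. Ratios, counts past 2-fold and medians were computed in Python 3.11.15 with pandas 2.3.3, numpy 2.4.6 and statsmodels 0.14.6, and checked on simulated data. Normalization, low signals, choice of probe set and fold limit were varied in 13 alternatives. The number of arrays limits the precision.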

Additional observations from a re-analysis of the deposited data

How the results depend on the processing

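Main values were 7 adhesion genes over 2-fold higher, 2 lower and a median log2 ratio of 0.30. The count of higher genes became 2 with a floor at the arrays' 75th percentile, 11 with no filter, 13 at a limit of 1.5-fold and 4 at 5-fold. Over all genes, the share higher in these settings was 1.32%, 13.6%, 13.7% and 2.42%, in the same order. The count of lower genes became 1 with low signals raised to the array medians, with both signals required at or above the medians, or with the median over a gene's probe sets, and 0 with the 75th percentile, with the array median added to each signal, or at 5-fold. Over all genes, the share lower in these settings was 2.15%, 1.89%, 6.68%, 0.399%, 1.13% and 1.38%, in the same order. The median log2 ratio became 0.00 with the 75th percentile and 0.52 with the median over probe sets. Median centring, quantile normalization and loess left the counts at 7 and 2. No gene past 2-fold turned to the opposite direction. The values of the 29 named adhesion genes moved beyond the technical spread in 26 of 315 cases, and among genes within 2-fold Itga1 gave 0.63, Itgb1 1.44 and Itga4 -1.16 with the median over probe sets. That median also takes in probe sets below both array medians. Itgb1 had 3 measured probe sets of 6, with log2 ratios from -0.05 to 0.18. Itga4 had 2 measured of 5, with 0.97 and 2.14 before raising low signals. The causes were not tested, beyond the construction of each alternative. No paired analysis was possible because each condition had 1 array.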

Other observations

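Cadherins, nectins, syndecans and neural adhesion molecules were counted in the same way. Of 24 measured genes, 1 was over 2-fold higher and 1 lower, which is 4.17% each beside 7.56% and 5.54% of all measured genes, and 0 and 0 with low signals raised to the array medians, with a median log2 ratio of 0.11. Sdc1, the syndecan of epithelia and plasma cells, read 226 in the Akita graft and 426 in the WT graft, 1.89-fold lower. L1cam, a neural and collecting duct molecule, read 260 in the Akita graft and 434 in the WT graft, 1.67-fold lower. Cdh15, M-cadherin, read 291 in the Akita graft and 189 in the WT graft, 1.54-fold higher, and Cd9, a tetraspanin partner of integrins, read 5691 in the Akita graft and 3794 in the WT graft, a log2 ratio of 0.58.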
